A study of Mus musculus with 8 samples.

Results

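Ttc5, Prcc and Qrich1 are 3 genes whose transcripts were near absent, or far lower, in every wild-type (WT) library of bone marrow multipotent progenitors (MPPs) compared with those of mice with the fusion gene NUP98-HOXA10hd (NA). They were taken by name from the table of 37980 gene rows, and all 3 had a row and were among the 11451 genes tested. The values that chose them are the NA and WT levels themselves, so their differences are described below without a test. The rule set no numerical limit.

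MPPs lie below the haematopoietic stem cell and give rise to all blood lineages. The cells were sorted as Lin-, CD48-, c-kit+, Sca1+, CD135+ and CD150-, with 1000 cells in each library, and there were 4 NA MPP and 4 WT MPP libraries, named here NA1 to NA4 and WT1 to WT4. NA mice carried 1 NA LSL/+ allele, which holds the fusion gene behind a stop cassette at the Rosa26 locus, together with Vav-Cre, a recombinase active in blood cells from the stem cell onwards. WT mice are labelled wild type, and both groups C57BL/6. No Cre-only control was analysed here, so the fusion and Vav-Cre cannot be told apart. Age and sex are not given in the labels, and nothing in them says whether aliquots came from separate mice, so p-values measure the spread between these aliquots, which may be technical.

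The depth was between 3876893 and 4916987 estimated reads per library, and 2053 genes differed between the groups at a limma adjusted p under 0.05, 1152 higher and 901 lower in NA MPPs. That was 17.9% of the genes tested, or 10.1% higher and 7.87% lower. Values are normalised counts, that is estimated reads per gene scaled by the authors to make libraries comparable. Hoxa10, the mouse gene that matches the HOXA10 part of the fusion, was between 298 and 371 normalised counts in the NA libraries and between 130 and 149 in the WT libraries. Nup98, which matches the other part, was at 85.0 ± 10.9 in the NA and 72.2 ± 12.1 in the WT libraries (SD, n = 4 each). Its groups overlapped (limma adjusted p = 0.443). Values per gene do not separate reads of the fusion from those of the 2 genes themselves. The fourth library of each group lay nearer to the mean of the other 3 than any other library did. Its median log2 distance was 0.139 for NA4, against 0.178 to 0.216 for NA1 to NA3. For WT4 it was 0.0971, against 0.158 to 0.193 for WT1 to WT3. The labels do not say whether the fourth libraries are independent of the other 3, and this was not tested. If they are not, n = 4 overstates the replication. Values that rest on the fourth libraries are therefore also given without them. Without both, 515 genes were called. Xist, expressed from the inactive X chromosome, was at least 869 normalised counts in each WT library and at most 2.8 in each NA library, while the Y-linked genes Ddx3y, Eif2s3y, Kdm5d and Uty were at least 22.4 in each NA library and at most 1.14 in each WT library. Sex and genotype therefore cannot be told apart in any comparison of these libraries.

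Ttc5 encodes a protein of tetratricopeptide repeats that recognises tubulin chains as they leave the ribosome and, with SCAPER and the CCR4-NOT deadenylase, triggers decay of tubulin mRNAs when free tubulin is in excess. The same protein, also called STRAP, acts in the nucleus as a cofactor of p300 and JMY in the p53 response to stress. Prcc encodes a proline-rich nuclear protein that associates with the PRP19/CDC5L splicing machinery and with MAD2L2. It is best known as a fusion partner of the transcription factor TFE3 in papillary renal cell carcinoma. Qrich1 encodes a glutamine-rich transcriptional regulator that acts downstream of PERK and eIF2α when the endoplasmic reticulum is under stress, where it controls genes of protein synthesis and secretion.

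The 3 genes lie on different chromosomes. On GRCm38 (the mm10 build named in the submitters' processing notes), GENCODE M21 places Ttc5 (ENSMUSG00000006288) at chr14:50765415-50785519 on the minus strand with 6 transcripts, Prcc (ENSMUSG00000004895) at chr3:87858903-87885608 on the minus strand with 1 transcript of 7 exons, and Qrich1 (ENSMUSG00000006673) at chr9:108516806-108560163 on the plus strand with 14 transcripts. The table counts genes, so the transcripts of a gene are not separated. The 250 bases before each RefSeq gene start (GRCm38.p6) were read because all 3 genes were low in the WT libraries, and those of Ttc5 and Prcc, the near-absent genes, are printed so that they can be compared. They are given 5′ to 3′ on the strand of the gene, without bases inside an annotated exon, at chr14:50785521-50785770 for Ttc5 and chr3:87885609-87885812 for Prcc. The Qrich1 window, at chr9:108516837-108517086, lies inside the first exon of transcript Qrich1-214 and is not printed. Capitals mark the motif matches described next, on either strand, so that TTTAT of the opposite strand reads ATAAA.
Ttc5: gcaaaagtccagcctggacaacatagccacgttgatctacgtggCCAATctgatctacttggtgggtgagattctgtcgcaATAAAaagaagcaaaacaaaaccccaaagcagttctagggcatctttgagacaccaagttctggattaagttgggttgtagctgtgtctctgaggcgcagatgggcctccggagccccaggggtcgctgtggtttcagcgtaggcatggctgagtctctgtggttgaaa
Prcc: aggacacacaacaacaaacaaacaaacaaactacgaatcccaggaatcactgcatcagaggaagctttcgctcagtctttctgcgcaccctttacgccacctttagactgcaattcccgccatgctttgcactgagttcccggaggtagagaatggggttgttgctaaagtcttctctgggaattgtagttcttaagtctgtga

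No motif was found in more than 1 of the 3 promoters. The search took both strands of 6 short motifs, and the shares below are over 32851 RefSeq promoters of the same length. Ttc5 held CCAAT, read by NF-Y and found in 33.8% of promoters, and TTTAT, a short form of the posterior HOX motif, found in 37.3%. Qrich1 held GGGCGG, the GC box of SP and KLF factors, found in 32.7%. Prcc held none of the 6, and its sequence therefore has no capitals. None of the 3 windows held TGATTTA (HOX with PBX or MEIS, 2.61% of promoters), CCGGAAG (ETS, 6.91%) or TATAAA (12.4%). The G and C content was 50.8% for Ttc5, 48.8% for Prcc and 64.8% for Qrich1, against a median of 52.4% over all promoters. Qrich1 held 17 CpG dinucleotides, Prcc 9 and Ttc5 7, against a median of 6. These matches are letters in a window and were not tested as sites of binding.

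Ttc5 has a near-identical copy elsewhere in the genome, whose sequence bears on how its reads could be assigned. The processed pseudogene Gm9387, at chr3:128953779-128955098 on the minus strand, matched 1320 bases of transcript Ttc5-201, which is 71.7% of it, with 37 differences and 97.2% identity. The first 120 aligned bases, from base 32 of the transcript, are shown for both, with the 3 positions that differ in capitals.
Ttc5-201: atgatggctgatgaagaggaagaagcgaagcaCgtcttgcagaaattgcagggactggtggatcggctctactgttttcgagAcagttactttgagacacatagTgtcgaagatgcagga
Gm9387: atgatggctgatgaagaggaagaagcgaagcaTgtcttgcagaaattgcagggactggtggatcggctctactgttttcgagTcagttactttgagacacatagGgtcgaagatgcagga
Of all windows of 75 bases in the aligned stretch, 87.5% held at least 1 difference. The Gm9387 row was at 0 in all 8 libraries. How reads were assigned between the gene and its copy was not tested. A second transcript, Ttc5-202, shares a stretch of 100 to 150 bases, within its bases 845 to 993, with transcripts of 29 other genes. Of those genes 19 were tested, 2 were called higher in NA MPPs (Appbp2 and Wdr1) and none lower at a limma adjusted p under 0.05 (1 lower at an unadjusted p under 0.05). Over all genes tested, 10.1% were called higher and 7.87% lower. Prcc shared no stretch of at least 100 bases at 95% identity with another gene. Qrich1 shared such a stretch only with Gm37678, an unconfirmed transcript inside the Qrich1 gene, which has no row of its own.

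Ttc5 was clearly expressed in all NA MPP libraries and close to nothing in all WT MPP libraries. Its normalised counts were 356 in NA1, 332 in NA2, 437 in NA3 and 399 in NA4, against 0 in WT1, 12.5 in WT2, 0 in WT3 and 3.55 in WT4. The lowest NA library was 26.6 times the highest WT library, and the groups did not overlap, as was the case in this direction for 11.5% of all genes tested. The values rest on 1545 estimated reads in the NA libraries and 15 in the WT libraries, 11 of them in WT2 and 4 in WT4. The exact Poisson 95% interval for a count of 0 reached 3.28 normalised counts in WT1 and 4.2 in WT3. Such intervals cover counting error only, because the cDNA was amplified and carried no molecular identifiers, so reads are not independent molecules.

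The mean of Ttc5 was 381 ± 46.5 over the NA libraries and 4.0 ± 5.88 over the WT libraries (SD, n = 4 each), so the WT mean was 1.05% of the NA mean. The difference of mean log2(normalised count + 1), NA minus WT, was 7.08, the third largest among the 11451 genes. Library WT2 decided the size of the WT mean. The ratio of NA to WT means was 95.2 over all libraries. Without WT2 the WT mean was 1.18 ± 2.05 (n = 3), below the level of 3 reads (2.66 to 3.54 normalised counts), so no ratio is given. Without the fourth libraries the means were 375 ± 55.0 and 4.15 ± 7.19 (SD, n = 3 each).

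Prcc followed the same pattern at a lower level. Its normalised counts were 185 in NA1, 199 in NA2, 188 in NA3 and 223 in NA4, against 0 in WT1, 17.0 in WT2, 0 in WT3 and 8.88 in WT4. The WT libraries with no estimated read of Prcc were the same as those with none of Ttc5, namely WT1 and WT3, and WT2 was the highest WT library for both genes. The groups did not overlap, as for 11.5% of all genes tested in this direction. The lowest NA library was 10.9 times the highest WT library. In the WT libraries Prcc rested on 25 estimated reads, 15 of them in WT2 and 10 in WT4, compared with 803 in the NA libraries.

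The mean of Prcc was 199 ± 17.3 over the NA libraries and 6.47 ± 8.17 over the WT libraries (SD, n = 4 each), so the WT mean was 3.25% of the NA mean. On the log2(normalised count + 1) scale the difference was 5.77, the sixth largest of all genes tested. Library WT2 weighed on this mean as well: the ratio of means was 30.8 over all libraries, and without WT2 the WT mean was 2.96 ± 5.13 (n = 3), within the level of 3 reads, so no ratio is given. Without the fourth libraries the means were 191 ± 7.53 and 5.66 ± 9.81 (SD, n = 3 each). The ratio of Prcc to Ttc5 normalised counts was between 0.431 and 0.601 in the NA libraries, and it was 1.36 in WT2 and 2.5 in WT4, where few reads stand behind it.

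Qrich1 differed from the other two in kind, since it was well expressed in both groups. Its normalised counts were 635 in NA1, 661 in NA2, 607 in NA3 and 609 in NA4, against 215 in WT1, 233 in WT2, 214 in WT3 and 220 in WT4. The groups did not overlap, as for 11.5% of all genes tested in this direction. The lowest NA library was 2.6 times the highest WT library. The lowest bound of the counting intervals was 558 normalised counts in the NA libraries, and the highest bound was 267 in the WT libraries. These intervals cover counting error only and are no test of the difference, on which Qrich1 was chosen. The means were 628 ± 25.3 and 221 ± 8.89 (SD, n = 4 each), so the WT mean was 35.1% of the NA mean. The log2 difference was 1.5, which ranked 212 of 11451 genes, far below the ranks of Ttc5 and Prcc. Without the fourth libraries the means were 634 ± 27.1 and 221 ± 10.9 (SD, n = 3 each).

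**Figure D1:**
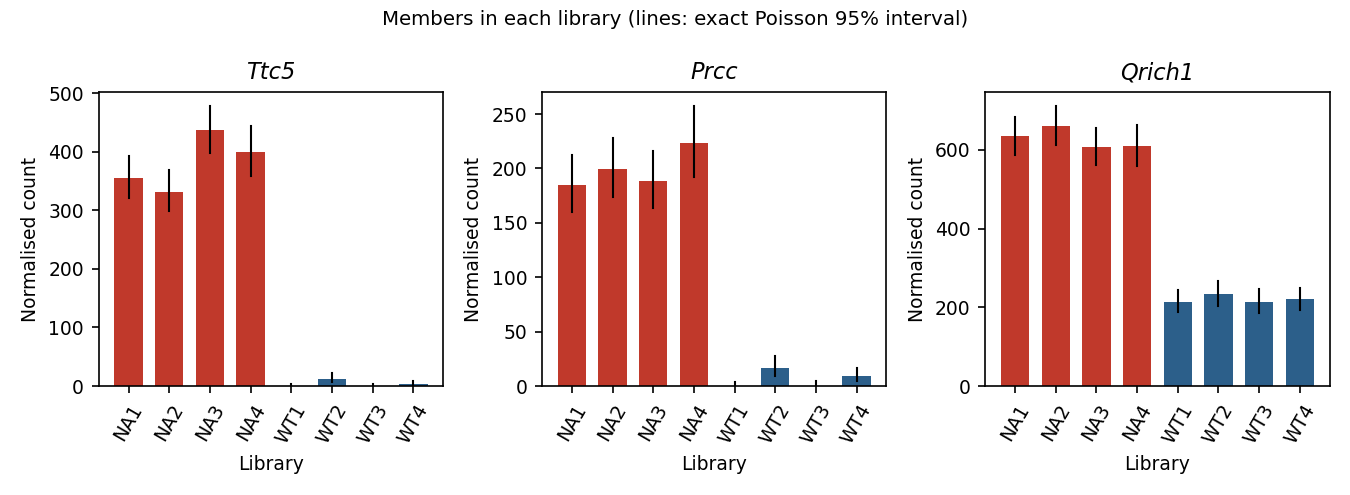
Normalised counts (y axes, from 0, with a separate scale for each gene) of Ttc5, Prcc and Qrich1 in each of the 8 libraries (x axes), NA MPP in red and WT MPP in blue. Black lines are exact Poisson 95% intervals of the estimated reads. Ttc5 and Prcc are at 0 in WT1 and WT3 and at most 12.5 and 17.0 in the other WT libraries, while Qrich1 stays between 214 and 233 in the WT libraries.

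Levels were also compared per kilobase of a full-length transcript of each gene (1842 bases for Ttc5-201, 2099 for Prcc-201 and 3331 for Qrich1-201). In NA MPPs Ttc5 was at 207 ± 25.3 normalised counts per kb, Qrich1 at 188 ± 7.61 and Prcc at 94.8 ± 8.26 (SD, n = 4). Ttc5 and Qrich1 overlapped there, with Ttc5 between 180 and 237 and Qrich1 between 182 and 198 per kb, and Prcc was below both in each library. In WT MPPs Qrich1 was at 66.2 ± 2.67 per kb, Prcc at 3.08 ± 3.89 and Ttc5 at 2.17 ± 3.19, and the last 2 did not differ beyond their spread. The place of Ttc5 and Prcc far below Qrich1 in WT MPPs restates how they were chosen.

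The spread among NA libraries was unremarkable for Ttc5 and small for the others. The SD of log2(normalised count + 1) over the 4 NA libraries was 0.175 for Ttc5, against a median of 0.177 over 2371 genes with an NA mean within 1.5-fold of it. For Prcc the SD was 0.122, against a median of 0.222 over 2997 genes of like level. For Qrich1 it was 0.0577, against 0.151 over 1542 genes, and 4.41% of those genes had a smaller SD.

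At these levels a value of 0 in a WT library was rare. Among the 2371 genes with an NA mean like that of Ttc5, 4 were listed at 0 in at least 1 WT library: Ttc5, Atf3, Trp53 and Ddx3y. Among the 2997 genes with an NA mean like that of Prcc, there were 3: Prcc, Pdia4 and Ptgs2. In the reverse direction, none of the 2397 genes with a WT mean in the range of Ttc5, and none of the 3059 in the range of Prcc, was listed at 0 in any NA library. Of the 1542 genes with an NA mean like that of Qrich1, 32 (2.07%) had a WT mean at or below 40% of the NA mean, and Qrich1 was among them. Ttc5, Prcc and Qrich1 were chosen on these same values, so their own places in these counts restate that choice and are no support for it. The counts describe the libraries and were not tested.

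Genes with an on/off pattern were then sought over the whole table, defined by a mean of at least 50 normalised counts in a group and every library of the other group under 10% of the lowest library of the first. Of the 8970 genes that reached this mean in NA MPPs, 6 passed: Ttc5, Prcc, Pdia4 and the Y-linked Kdm5d, Ddx3y and Eif2s3y. Of the 8957 that reached it in WT MPPs, Xist alone passed. Ttc5 and Prcc were 2 of 3 autosomal genes with this pattern. Both had been chosen as near absent in the WT libraries, so their passing restates that choice and is no support for it. The third, Pdia4, encodes a disulphide isomerase of the endoplasmic reticulum and lies at chr6:47796141-47813430. Its normalised counts were 125, 188, 152 and 167 in NA1 to NA4 and 0.888, 0, 0 and 1.78 in WT1 to WT4. No WT library held more than 2 estimated reads of Pdia4, so its NA mean was at least 52.1-fold higher, taken against a floor of 3 reads per library.

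The highest WT library reached 3.75% of the lowest NA library for Ttc5 and 9.19% for Prcc, the latter close to the limit of 10%. The next gene outside it was Sdc4, a syndecan, at 10.9%. Qrich1 stood far from this group at 38.5%, in place 41 of the same order, between Pde9a at 37.7% and Ilf2 at 38.7%. With a limit of 20%, 12 genes were higher in NA MPPs and 1 in WT MPPs, and with a limit of 40% there were 45 and 4. Over all genes tested, 10.5% had every NA library below every WT library.

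**Figure D2:**
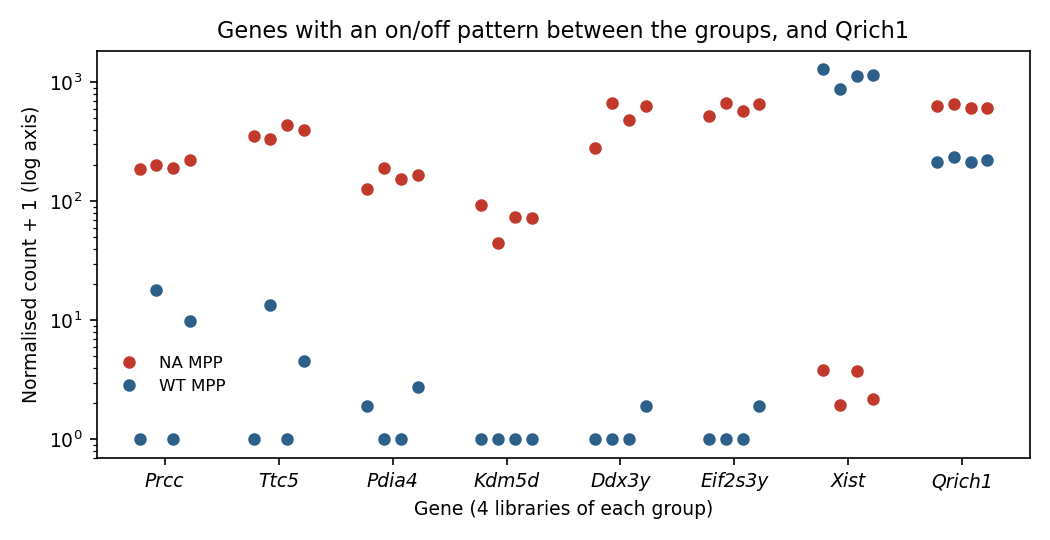
Normalised count + 1 (y axis, log scale) of the 7 genes with an on/off pattern, and of Qrich1 for comparison, in the 4 NA MPP libraries (red) and 4 WT MPP libraries (blue), with libraries 1 to 4 from left to right within each gene (x axis). Points at 1 are libraries with no read. Prcc, Ttc5, Pdia4 and the Y-linked genes are high in NA MPPs, Xist in WT MPPs, and the groups of Qrich1 lie much closer together, at 628 and 221 on average.

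The genes whose pattern was most like that of each member were ranked by Pearson's r over the 8 libraries, on log2(normalised count + 1), among 8999 genes. With libraries in separate groups r mainly follows the group difference, and it is given as a description. Near Ttc5 stood H2-M3 (r = 0.995), a class Ib histocompatibility gene, and Rcc2 (0.994), a regulator of chromosome condensation. Near Prcc stood Ttc5 itself (0.989) and Prkacb (0.984), a catalytic subunit of protein kinase A. Qrich1 was most like Sdc4 (0.997), the Y-linked Eif2s3y (0.996) and Prdx3 (0.994), a mitochondrial peroxiredoxin. An r above 0.95 was reached by 121 genes for Ttc5, 73 for Prcc and 159 for Qrich1. Ttc5 and Qrich1 had r = 0.963 with each other, and Prcc and Qrich1 0.922.

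The genes that flank the 3 loci were examined next, to see whether a wider stretch of each chromosome moved with the member. There were 19 rows, the 3 nearest genes on each side and 1 that overlaps Ttc5, and 10 of them were tested. None of the tested genes showed a difference near that of its member, which had been chosen for a large difference. Near Ttc5 only Parp2 was tested, so little can be read at that locus. The differences of log2(normalised count + 1) ran from -0.48 to 0.53, and 1 gene (10% of those tested, against 17.9% of all genes) was called.

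Next to Ttc5, Parp2, a DNA repair polymerase of the opposite strand that starts 22322 bases beyond the gene, was at 382 ± 19.6 in the NA and 364 ± 28.3 in the WT libraries (SD, n = 4 each, limma adjusted p = 0.681). The olfactory receptor genes Olfr747, Olfr748 and Olfr749, together with Ccnb1ip1 and Rpph1, were at 0 in all 8 libraries. Gm10916, a pseudogene that overlaps Ttc5 on the opposite strand, was at 0.888 in WT1 and 0 elsewhere. The strand setting of the counting is not given in the sources used here, so reads of overlapping genes on opposite strands might not be told apart.

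Around Prcc, the 5 genes tested were Pear1, Insrr, Hdgf, Mrpl24 and Rrnad1, and none was called (limma adjusted p from 0.535 to 0.842, with 0 at an unadjusted p under 0.05). Hdgf, a growth factor gene that starts 20713 bases beyond Prcc, was at 931 ± 93.8 in the NA and 879 ± 106 in the WT libraries (SD, n = 4 each). Sh2d2a, the nearest gene on the other side, was at 0 in all NA libraries and at most 2.66 in a WT library. Rrnad1 was at 423 ± 35.2 and 410 ± 41.2.

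Qrich1 has the closest neighbours. Impdh2, which makes guanine nucleotides, starts 123 bases after it and was at 987 ± 85.1 in the NA and 974 ± 106 in the WT libraries (SD, n = 4 each, limma adjusted p = 0.9). Qars, the glutaminyl-tRNA synthetase, ends 865 bases before it and was at 1039 ± 82.3 and 950 ± 122 (limma adjusted p = 0.384). Usp19, a deubiquitinase, was the called gene and fell in NA MPPs, with 189, 138, 222 and 193 normalised counts in NA1 to NA4 and 247, 283, 244 and 249 in WT1 to WT4. Its difference was -0.48 ± 0.151 (SE, limma adjusted p = 0.0411), opposite in direction to that of Qrich1, and the call was lost in 11 of 17 alternative settings (limma adjusted p from 0.0192 to 0.171 over all settings). These included leaving out NA1, NA2, NA4 or any WT library (limma adjusted p from 0.0516 to 0.107). Ndufaf3 was at 109 ± 37.7 and 134 ± 23.3 (limma adjusted p = 0.331), Lamb2 was too low to be tested, and Gm24083 was at 0 throughout.

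**Figure D3:**
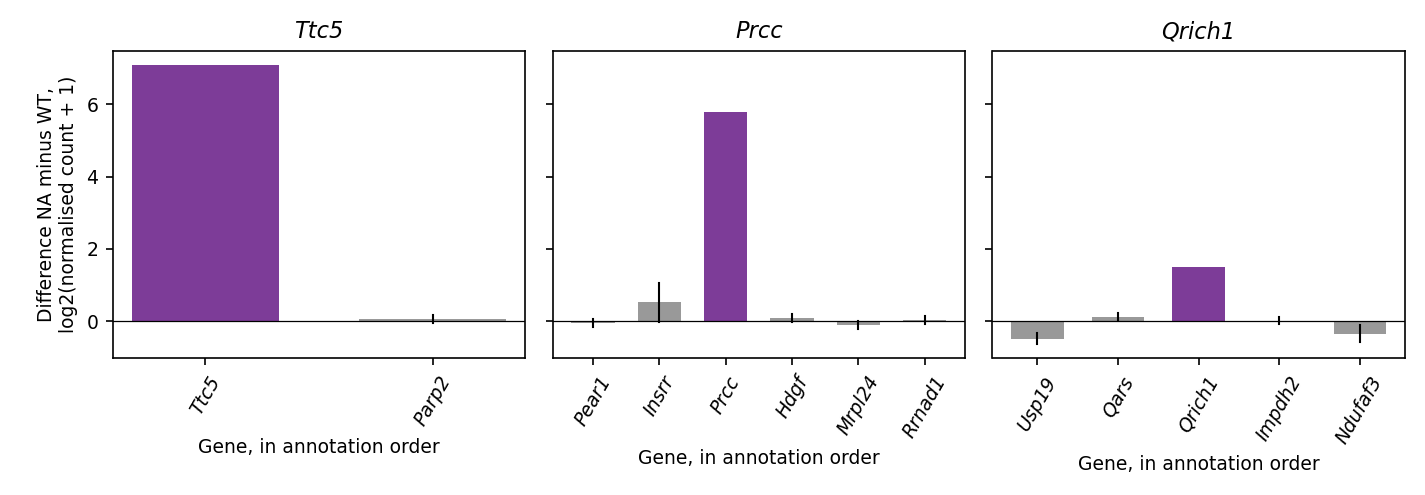
Difference of mean log2(normalised count + 1), NA minus WT (y axis, shared), for each member (purple) and its tested neighbours (grey) in the order of the annotation (x axes, not to scale). Black lines are limma standard errors of the neighbours. The bars of Ttc5, Prcc and Qrich1 stand at 7.08, 5.77 and 1.5, and those of the neighbours between -0.48 and 0.53.

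The genes that work with each member were taken from 6 lists, with 69 genes tested. Of these, 8 were called higher and 2 lower in NA MPPs, or 14.5%, against 17.9% of all genes tested. The median difference of the 69 genes was -0.02 on the log2 scale and that of all genes -0.01.

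For Ttc5, 9 alpha and beta tubulin genes were tested and 1 was called. Tubb5, the main beta tubulin of dividing cells, rose in NA MPPs, with 5126, 4276, 4283 and 4397 normalised counts in NA1 to NA4 and 2498, 2608, 3016 and 2688 in WT1 to WT4. The groups did not overlap, as for 11.5% of all genes tested in this direction. The log2 difference was 0.74 ± 0.0836 (SE, limma adjusted p = 5.28e-05). The call held under all 17 alternative settings. Other tubulins did not pass: Tubb4b was at 1519 ± 134 in the NA and 1357 ± 49.6 in the WT libraries (limma adjusted p = 0.197), Tuba1b at 842 ± 119 and 967 ± 101 (0.224), and Tuba4a at 565 ± 99.7 and 646 ± 43.7 (0.251; SD, n = 4 each). The median difference of the tubulins was -0.09, and their summed level was between 7301 and 8608 in NA and between 5669 and 6559 normalised counts in WT libraries, much of it Tubb5.

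Scaper, the adaptor that joins TTC5 to the deadenylase, was level between the groups at 109 ± 11.7 in the NA and 117 ± 17.9 in the WT libraries (SD, n = 4 each, limma adjusted p = 0.774). Among the 12 tubulin mRNA decay genes tested, Cnot9 rose, from 209 ± 18.2 in WT to 294 ± 47.9 in NA MPPs (limma adjusted p = 0.0291), and Cnot10 fell, from 273 ± 36.5 to 165 ± 19.9 (limma adjusted p = 0.00333; SD, n = 4 each). Both encode subunits of CCR4-NOT. The Cnot9 call was lost in 9 of 17 alternative settings (limma adjusted p from 0.0197 to 0.176 over all), among them without NA3, NA4, WT2, WT3 or WT4 (0.0513 to 0.0832). The Cnot10 call was lost only without NA4 and WT4 together (limma adjusted p = 0.0535; from 0.00162 over all settings). Cnot1, the scaffold of the complex, was at 808 ± 57.3 and 854 ± 39.8 (limma adjusted p = 0.553).

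Of the 9 tested partners of TTC5 in the p53 response, Crebbp, an acetyltransferase close to p300, rose from 40.8 ± 11.1 in WT to 120 ± 25.9 in NA MPPs (SD, n = 4 each, limma adjusted p = 0.0011). Its call held under all 17 alternative settings. Ep300 itself was at 94.1 ± 14.0 in the NA and 97.8 ± 14.8 in the WT libraries (limma adjusted p = 0.88), and Jmy at 15.7 ± 8.09 and 10.7 ± 5.89 (0.604). Trp53, which encodes p53, was chosen for mention after its values were seen, because it was listed at 0 in WT3, where Ttc5 was also at 0. It was at 534, 359, 412 and 390 normalised counts in NA1 to NA4 and at 70.1, 271, 0 and 110 in WT1 to WT4. The groups did not overlap, as for 11.5% of all genes tested in this direction. However, the WT libraries spread so widely that the difference did not pass (limma adjusted p = 0.0557). Library WT2, the highest WT library for Trp53, was also the highest for all 3 members.

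For Prcc, 11 genes of the PRP19/CDC5L splicing complex were tested and 1 was called. Bcas2, a core subunit, rose from 336 ± 27.6 in WT to 474 ± 54.0 in NA MPPs (SD, n = 4 each, limma adjusted p = 0.00923), but the call was lost without the fourth libraries (limma adjusted p = 0.126; from 0.00633 over all settings). Prpf19 was at 110 ± 26.3 in the NA and 150 ± 25.9 in the WT libraries (limma adjusted p = 0.133), and Cdc5l at 431 ± 81.1 and 386 ± 37.7 (0.501). The list median was -0.07.

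Tfe3, the gene to which PRCC is joined in renal carcinoma, was equal in mean at 146 ± 40.6 in the NA and 146 ± 24.1 in the WT libraries (SD, n = 4 each, limma adjusted p = 0.941), and Mad2l2 was at 156 ± 38.7 and 172 ± 15.3 (0.541). In the list of TFE3 relatives, its other fusion partners and MAD2 proteins, 10 genes were tested and 2 rose. Sfpq, a splicing factor that is also a TFE3 fusion partner, rose from 957 ± 75.1 in WT to 1369 ± 136 in NA MPPs (limma adjusted p = 0.00228), and passed under all 17 alternative settings. Cltc, clathrin heavy chain, rose from 311 ± 31.2 to 438 ± 85.8 (limma adjusted p = 0.0335), which 10 of 17 settings did not call (0.0073 to 0.184 over all), among them without NA1, NA3, NA4, WT1, WT2 or WT4 (0.0612 to 0.0885).

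For Qrich1, 18 genes of the integrated stress response were tested, with 2 called higher and 1 lower. Nupr1, a stress-induced chromatin protein, rose from 32.5 ± 6.95 in WT to 86.2 ± 18.5 in NA MPPs (limma adjusted p = 0.0025), and Ppp1r15b, which directs the phosphatase of eIF2α, from 258 ± 28.1 to 379 ± 59.1 (0.0142; SD, n = 4 each). Eif2b2, a subunit of the exchange factor that phosphorylated eIF2 inhibits, fell from 250 ± 20.6 to 189 ± 18.7 (limma adjusted p = 0.0457), a call lost in 10 of 17 settings (0.022 to 0.196 over all), among them without NA2, NA3, NA4 or any WT library (0.0576 to 0.143). Without the fourth libraries, Nupr1 (limma adjusted p = 0.0506; from 0.00211 over all settings) and Ppp1r15b (0.112; from 0.00531) did not pass either, and Ppp1r15b was also lost without NA4 alone (0.0612). Eif2ak3, which encodes PERK, was at 74.2 ± 26.2 in the NA and 54.1 ± 4.7 in the WT libraries (limma adjusted p = 0.399). Atf4, the central factor of the response, was at 2586 ± 327 and 1947 ± 455 and was not called (limma adjusted p = 0.0527). Ddit3 was not called either, at 483 ± 119 and 308 ± 151 (limma adjusted p = 0.0694). For both genes the NA and WT libraries overlapped. The list median was 0.05.

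**Figure D4:**
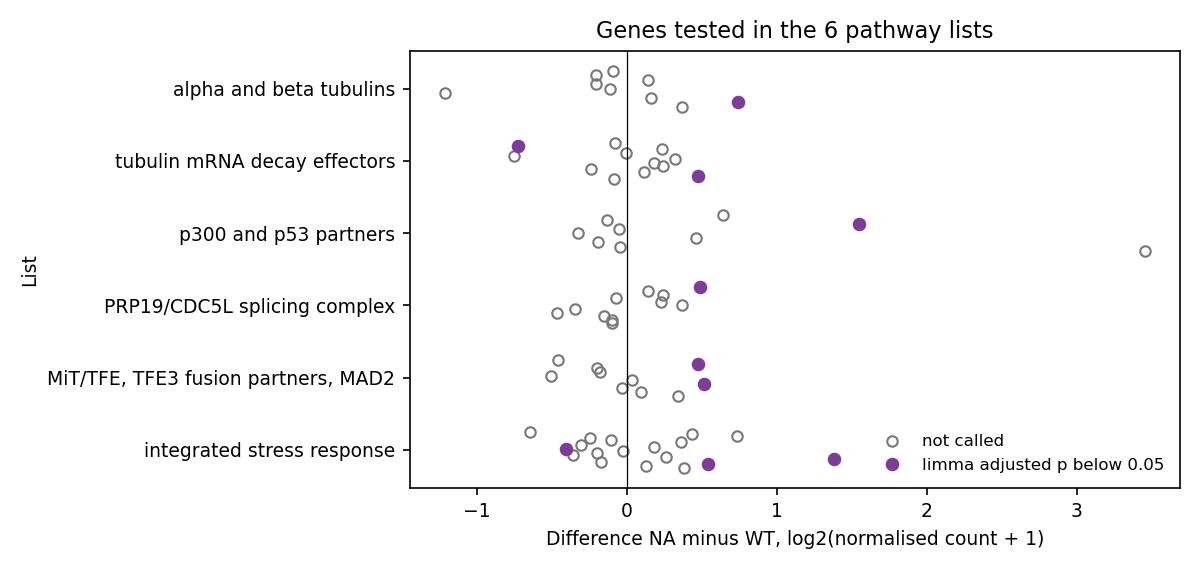
Difference of mean log2(normalised count + 1), NA minus WT (x axis), of the 69 genes tested in the 6 pathway lists (y axis). Filled points are the 10 genes with a limma adjusted p under 0.05 and open points the other genes. The points of each list lie on both sides of 0, and the open point at 3.46 is Trp53.

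Markers of the sorted population and of other blood cells were read in the same libraries. Of 6 gate and progenitor genes, Kit, Flt3, Cd34 and Ly6a (Sca1) had means of at least 1197 normalised counts in each group. Ly6a and Cd48 were lower in NA MPPs. The marker calls in this paragraph were not examined without the fourth libraries. Ly6a was at 1277 ± 88.5 in the NA and 1548 ± 63.3 in the WT libraries (SD, n = 4 each, limma adjusted p = 0.0257). Slamf1 (CD150) was at 19.7 ± 19.4 and 20.9 ± 6.51 (limma adjusted p = 0.57). Cd48, against which the cells were sorted, was at 17.7 ± 5.36 in the NA and 56.1 ± 21.3 in the WT libraries (SD, n = 4 each, limma adjusted p = 0.00711). The 5 erythroid markers summed to between 4.62 and 7.47 normalised counts in NA and between 2.28 and 35.5 in WT libraries, and the 5 B cell markers to between 5.91 and 25.9 and between 5.69 and 13.3. Granulocyte and monocyte markers summed to between 1378 and 1695 in NA and between 1733 and 2342 in WT libraries, nearly all of it Prtn3, with Elane at 0 in all 8 libraries and both tested genes lower in NA MPPs. Of the 4 T cell genes, Cd3e, Cd3d and Cd3g were at 0 in all libraries, while Lck fell from 227 ± 54.4 in the WT to 145 ± 32.0 in the NA libraries (SD, n = 4 each, limma adjusted p = 0.0371), with overlapping groups. The T cell sums, all of them Lck, were between 112 and 187 in the NA and between 162 and 294 in the WT libraries. The 3 mast cell and basophil markers summed to between 7.39 and 15.9 and between 1.14 and 19.5, and the 5 endothelial and stromal markers to between 51.7 and 173 and between 55.0 and 84.9. In each of these lists 1 gene was tested, Cpa3 (limma adjusted p = 0.449) and Pecam1 (0.338). Cxcl12, which was not tested, was at 100.6 in NA3 and made up most of the highest endothelial and stromal sum. It was at most 28.35 in the other NA libraries and at most 13.66 in a WT library. Of the 4 megakaryocyte genes none was called by limma (1 at an unadjusted p under 0.05). The part of these markers in the differences of Ttc5, Prcc and Qrich1 was not tested, and in bulk libraries fewer cells that express a gene and less RNA per cell cannot be told apart.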

How the data were processed

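RNA was sequenced in 8 libraries of 1000 sorted MPPs, grouped by the genotype in the labels, 4 NA and 4 WT. The authors quantified genes with RSEM (build mm10) and used DESeq2; versions, annotation and strand use are not given in the sources used here. The deposited values are a normalised signal: expected counts that were divided by 1 factor per library before deposit, although the table is named as raw. In each library, a single step, worth 1 read, divided 98.3% to 98.8% of low values evenly (within 0.02 read), and it was 0.888 to 1.18 normalised counts. Division by the step gave the estimated reads, which were used for depth, intervals and the floor of 3 reads (2.66 to 3.54 normalised counts).

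Because the deposited values are scaled, the planned test on counts was not run, and a count test on the estimated reads was not tried. The test used was limma 3.58.1 (R 4.3.3) with a variance trend on log2(normalised count + 1). It took genes that reached 10 normalised counts in 4 or more libraries. NA was compared with WT MPPs without covariates, with Benjamini-Hochberg adjustment over 11451 genes and a threshold of 0.05. Alternatives changed the pseudocount (0.5 or 5), the filter, the scaling, the variance trend, the libraries or added a replicate block. Deviations of same-numbered libraries correlated weakly (r from 0.0131 to 0.158, highest for NA4 with WT4). Other pairs had r from -0.0943 to 0.101. The numbers were not used as pairs, except in the replicate block.

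Symbols came from GENCODE M21 and matched 32916 rows. Transcripts were compared with blastn 2.17.0 (at least 100 bases at 95% identity), and promoters were read from a RefSeq table in which all 3 genes matched. No protein sequences were used here. The genes named besides the members were the 3 with the highest r for each, those with an on/off pattern, all neighbours, direct partners and the called genes of each list with the largest change (up to 3 each way). A gene that this rule names is not reported here. Members and lists were chosen with earlier results of these data known. The fits were tested on simulated data.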

Additional observations from a re-analysis of the deposited data

Results flagged for a closer look

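In each group of 4 libraries, the highest or lowest value was compared with the others by its gap to the nearest, as a share of the range. Of 48 groups examined, 7 held a library that stood apart, where chance gives about 1 in 20, or 2.4. No value of Ttc5, Prcc or Qrich1 was among them.

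Among the neighbours, Insrr was at 30.1 normalised counts in NA2, with the other NA libraries between 18.7 and 19.4. Usp19 was at 283 in WT2, with the others between 244 and 249, so the highest WT library lies farther from the NA libraries than the rest. Impdh2 was at 1114 in NA3, with the others between 934 and 953.

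Among the partner genes, Tubb5 was at 5126 in NA1, with the other NA libraries between 4276 and 4397, all above the WT libraries. Cnot10 was at 327 in WT2, against 249 to 261 in the others, and Eif2b2 at 219 in WT4, against 257 to 262. The estimated reads were 3887847 in NA4 and between 4909391 and 4916987 in the other NA libraries.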

How the results depend on the processing

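The log2 differences of all 3 members kept their direction under every pseudocount, scaling and set of libraries tried. That of Ttc5 was between 5.62 and 7.64 with another pseudocount and between 6.59 and 7.84 with a library left out, and that of Prcc between 4.44 and 6.3 and between 5.15 and 6.54. Qrich1 was between 1.48 and 1.53 with a library left out, and 1.44 with scaling to equal totals, a shift larger than its spread. That scaling moved the median of all genes from -0.01 to -0.08 and the share of calls that were higher from 56.1% to 41.3%, while scaling by TMM left 2043 calls. The number of genes with an on/off pattern was between 7 and 10 with a library left out.

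With each library left out in turn, called genes numbered between 1106 and 2141 (656 to 1160 higher, 450 to 996 lower), with the lowest numbers without NA4, and called pathway genes between 6 and 11. Without WT4 there were 1294 calls, 479 of them lower. Without both NA4 and WT4 there were 515 calls, 370 higher and 145 lower, with 3 pathway genes; the cause was not tested. Without a variance trend, 595 genes were called lower. Neighbour genes called were 0 without both NA4 and WT4, without the low-value filter, with the replicate block and without the trend, and between 0 and 1 with a library left out. The replicate block gave 2004 calls in all and ended the calls of Usp19 and Eif2b2. The planned count test was not run, because the deposited values are already scaled and not every value is a whole multiple of the step of its library. At this depth 3 reads are 2.66 to 3.54 normalised counts, so the WT levels of Ttc5 and Prcc are known only to within a few reads.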
